A study of Mus musculus with 10 samples.

Results

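The genes of S phase and of G2 and mitosis were followed in single cells of the *Grem1* and *Lepr* lineages of the mouse hind limb. The set held 43 genes with symbols from A to G, chosen as the S and G2/M genes listed in the count tables of both lineages, out of 29183 genes listed for both. Of these, 16 were S phase genes and 27 were G2/M genes. The rule used phase and listing only, no measured level, although the lists were drawn up with earlier results of these data known. Single cells were compared across plates, lineages and cell groups by the summed share of these genes, and cells with several of them were described one by one.

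All mice were C57BL/6. *Grem1-TdT* mice carry a *Grem1* promoter-driven, tamoxifen-inducible Cre and a TdTomato reporter. They received tamoxifen chow for 2 weeks from 5 to 6 weeks of age. *Lepr-TdT* mice were matched for age, and TdTomato there marks cells in which the *Lepr* promoter has driven Cre. The series text names tamoxifen for both lines, the treatment label for *Grem1-TdT* only. From *Grem1-TdT* mice, articular cartilage (AC) and growth plate (GP) were cut out and digested with collagenase type II, and live single TdTomato-positive cells were sorted without an antibody against blood or endothelial cells. From *Lepr-TdT* mice, whole bones were crushed and digested with collagenase type I, and CD45, Ter119 and CD31 had to be negative as well. Lineage, tissue, digestion and sort can thus not be told apart. The labels of the 8 *Grem1-TdT* plates do not say which wells held AC or GP cells, and no label ties a plate to an animal.

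Of 768 *Grem1-TdT* wells, 684 had at least 350 detected genes and were kept, with 133289 to 179071 UMIs per plate and a median of 1472.5 UMIs per cell. Of 162 *Lepr-TdT* wells on 2 plates, 160 were kept, with 64310 and 59981 UMIs in the shared genes and a median of 505 per cell. *Grem1-TdT* cells were split by 4 genes that are no members: a cell with more UMIs of *Clu*, *Cilp* and *1500015O10Rik* together than of *Cnmd* was called Clu-side (414 cells), any other Cnmd-side (270 cells). Clu-side cells held 208 UMIs of *Creb5*, against 16 in Cnmd-side cells, although the Cnmd-side cells held more UMIs in all (652543 against 529600), and all 8 articular markers listed were higher there. Cnmd-side cells held 752 UMIs of *Epyc*, against 29, and 4 of 5 growth plate and hypertrophic markers were higher there. *Cxcl12*, which marks marrow stroma, was detected in 99.4% of *Lepr-TdT* cells. Cnmd-side cells were the deeper sampled group, with a median of 2218.5 UMIs per cell against 1217.

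A dividing cell copies its DNA in S phase and separates the copies in mitosis. Transcripts for the replication machinery accumulate around the start of S phase and those for spindle, kinetochore and cytokinesis proteins in G2 and mitosis, so several transcripts of 1 class in a cell say more of its phase than a single transcript does. In the limb, the columnar chondrocytes of the GP divide to lengthen the bone, adult articular chondrocytes divide rarely, and blood progenitors of the marrow divide often.

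Each member was sampled thinly. The 16 S phase members gave 224 UMIs in *Grem1-TdT* and 94 in *Lepr-TdT* cells, and the 27 G2/M members 1094 and 186. Over both lineages the median member had 18 UMIs, with a range of 1 to 147, 25 members had fewer than 20, and 42 were detected in *Grem1-TdT* and 39 in *Lepr-TdT* cells. These totals give the depth behind each gene and are not levels to be set against one another.

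Among the S phase members, *Cdc6* and *Cdt1*, which load the replicative helicase, had 2 and 13 UMIs in *Grem1-TdT* cells. *Cdc45* and *Gins2*, parts of the active helicase, had 9 and 15. *Ccne2*, a cyclin that drives entry into S phase, had 10, *E2f8*, a repressor of the E2F family, had 4 UMIs, all in 1 cell, and *Dtl*, which marks Cdt1 protein for destruction, had 17. *Fen1* and *Exo1*, nucleases of replication and repair, had 11 and 3, and *Dscc1*, a clamp loader subunit for cohesion, had 2. *Clspn*, a checkpoint mediator at the fork, had 6, *Brip1* and *Blm*, both helicases, had 9 and 77, and the chromatin factors *Chaf1b*, *Atad2* and *Cdca7* had 3, 16 and 27. In *Lepr-TdT* cells only *Dtl*, with 27 UMIs, and *Chaf1b*, a subunit of the complex that places histones on new DNA, with 11, had more than 10 S phase UMIs.

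Of the G2/M members, the mitotic cyclins *Ccna2*, *Ccnb1* and *Ccnb2* had 11, 43 and 85 UMIs in *Grem1-TdT* cells, and their kinase *Cdk1* had 42. The kinase partners *Cks1b* and *Cks2* had 121 and 31, the phosphatase *Cdc25c* had 1, and *Cdc20*, which activates the ubiquitin ligase that ends mitosis, had 77. The chromosomal passenger genes *Aurkb*, *Birc5* and *Cdca8* had 11, 56 and 62, and the spindle kinase *Aurka* had 16. At the centromere and kinetochore, *Cenpa*, the centromeric histone, had 114, the motor *Cenpe* had 13, *Cenpf* had 40, and the checkpoint genes *Bub1b* and *Bub1* had 8 and 0. The spindle genes *Dlgap5*, *Ckap2* and *Ckap2l* had 18, 16 and 10, and *Anln*, *Ect2* and *Gas2l3*, which act at the division furrow and midbody, had 19, 8 and 73. *Cdca2*, a phosphatase partner on mitotic chromosomes, *Cdca3*, *G2e3*, a ubiquitin ligase, and *Anp32e*, a histone chaperone, had 10, 59, 39 and 111. *Anln*, *Aurka*, *Bub1b* and *Ect2* had no UMI in *Lepr-TdT* cells, a count that allows up to 3.

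The promoters of the members named most often below are shown for the sequence elements by which cell cycle genes are commonly grouped. Each window runs from 250 bases before to 50 bases after the start of transcription in RefSeq (GRCm38.p6) and is written on the gene's strand. Capitals mark, on either strand, TTTGAA (the cell cycle homology region), CCAAT, or an E2F-type word (TTTGGCGC, TTTCCCGC, TTTGCCGC or TTTCGCGC), where TTCAAA and ATTGG are the first 2 as read on the other strand. The windows are *Cdc20* (chr4:118437294-118437593, minus strand), *Cenpa* (chr5:30666636-30666935, plus strand), *Ccnb1* (chr13:100786437-100786736, minus strand), *Cenpf* (chr1:189688037-189688336, minus strand), *Dtl* (chr1:191575495-191575794, minus strand) and *Blm* (chr7:80534949-80535248, minus strand).
*Cdc20*: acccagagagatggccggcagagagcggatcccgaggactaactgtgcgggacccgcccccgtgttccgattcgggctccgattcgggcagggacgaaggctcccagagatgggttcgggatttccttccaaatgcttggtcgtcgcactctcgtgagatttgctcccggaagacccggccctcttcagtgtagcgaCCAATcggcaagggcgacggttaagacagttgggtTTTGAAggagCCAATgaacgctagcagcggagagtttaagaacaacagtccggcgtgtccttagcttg
*Cenpa*: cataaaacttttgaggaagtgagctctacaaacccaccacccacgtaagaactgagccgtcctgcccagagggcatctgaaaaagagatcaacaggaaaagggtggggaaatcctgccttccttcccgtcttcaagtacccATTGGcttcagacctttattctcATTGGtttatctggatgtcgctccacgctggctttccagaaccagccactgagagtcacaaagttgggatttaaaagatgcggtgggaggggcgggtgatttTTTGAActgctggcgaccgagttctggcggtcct
*Ccnb1*: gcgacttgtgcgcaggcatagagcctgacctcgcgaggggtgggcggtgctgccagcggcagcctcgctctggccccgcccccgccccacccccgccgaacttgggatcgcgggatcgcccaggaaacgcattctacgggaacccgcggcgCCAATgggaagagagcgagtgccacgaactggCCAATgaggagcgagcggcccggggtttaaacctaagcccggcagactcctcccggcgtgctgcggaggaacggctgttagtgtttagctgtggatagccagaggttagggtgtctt
*Cenpf*: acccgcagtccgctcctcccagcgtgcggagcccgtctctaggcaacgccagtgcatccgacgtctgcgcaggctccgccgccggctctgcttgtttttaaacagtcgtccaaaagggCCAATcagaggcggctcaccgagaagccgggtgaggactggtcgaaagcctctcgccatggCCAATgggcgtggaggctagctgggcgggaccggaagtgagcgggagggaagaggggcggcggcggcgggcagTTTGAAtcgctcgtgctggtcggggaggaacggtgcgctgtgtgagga
*Dtl*: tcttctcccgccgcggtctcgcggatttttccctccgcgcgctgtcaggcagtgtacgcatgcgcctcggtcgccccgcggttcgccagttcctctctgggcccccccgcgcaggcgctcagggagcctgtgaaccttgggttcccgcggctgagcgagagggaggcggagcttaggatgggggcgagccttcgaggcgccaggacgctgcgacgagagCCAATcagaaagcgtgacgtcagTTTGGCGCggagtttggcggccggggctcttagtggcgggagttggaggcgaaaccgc
*Blm*: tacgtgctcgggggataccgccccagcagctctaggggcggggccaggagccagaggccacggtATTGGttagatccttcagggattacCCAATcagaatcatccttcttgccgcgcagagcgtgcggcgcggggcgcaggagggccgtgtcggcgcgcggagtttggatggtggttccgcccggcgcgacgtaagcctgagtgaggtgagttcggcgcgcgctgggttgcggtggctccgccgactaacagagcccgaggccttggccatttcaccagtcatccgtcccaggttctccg

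Of the 43 members, 33 matched the promoter table, with 35 windows. TTTGAA stood in 16 of 23 G2/M windows (69.6%), in 3 of 12 S phase windows (25%), and in 17.9% of all 32851 windows. CCAAT stood in 20 of 23 G2/M windows, in 6 of 12 S phase windows, and in 37.4% of all. The E2F-type words stood in 1 G2/M window, in 5 of 12 S phase windows, and in 2.26% of all. In the windows shown, *Cdc20* holds TTTGAA 18 bases before the start and *Cenpa* and *Cenpf* hold it 16 and 2 bases after. *Ccnb1* holds CCAAT at -99 and -67 and no TTTGAA. *Dtl* holds an E2F-type word at -8 and CCAAT at -31, and *Blm* only CCAAT, at -186 and -161. A match is a description of the letters in the window, and no match says nothing about the factor.

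The summed share of the members was higher in Cnmd-side than in Clu-side cells on 7 of 8 plates, and the G2/M members carried that difference. Per 10000 UMIs of the shared genes, the members made up 4.41, 6.89 and 14.9 (lowest, median and highest plate) in Clu-side and 6.29, 13.5 and 24.9 in Cnmd-side cells. The means were 7.64 ± 3.5 and 13.9 ± 5.85 (SD, n = 8 plates), and the difference within a plate was 6.29 ± 7.12, from -3.02 on plate 7 to 20.02 on plate 4. The ranges overlapped. As a sum over genes chosen together the share was given no test, and in sums over cells, more dividing cells and more RNA of these genes per cell cannot be told apart.

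The G2/M members alone gave 5.82 ± 3.19 in Clu-side and 12.05 ± 5.62 per 10000 in Cnmd-side cells, higher on 7 of 8 plates, a difference of 6.23 ± 6.86. The S phase members gave 1.82 ± 0.540 and 1.89 ± 0.734, with Cnmd-side higher on 4 of 8. The 59 other S and G2/M genes with symbols in the shared range gave 16.6 ± 3.36 and 18.8 ± 3.02, with Cnmd-side higher on 5 of 8. The summed share of 47 haematopoietic markers was alike in both groups on average, with 20.1 ± 24.3 and 19.5 ± 20.7 per 10000.

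Between lineages, the *Lepr-TdT* plates held 30.2 and 14.3 UMIs of the members per 10000, and the *Grem1-TdT* plates 7.92, 9.86 and 15.2 (lowest, median, highest). One *Lepr-TdT* plate thus lay within the *Grem1-TdT* range and the other above it. The S phase members alone did not overlap between lineages, at 9.49 and 5.50 in *Lepr-TdT* and 0.900 to 2.68 in *Grem1-TdT*. On *Lepr-TdT* plate 2, *Dtl* and *Chaf1b* gave 11 and 10 of the 33 S phase UMIs. The 59 other S and G2/M genes did not overlap either, at 34.8 and 45.3 in *Lepr-TdT* and 13.8 to 21.2 in *Grem1-TdT*. How many of all genes did not overlap was not counted. Over all cells, S phase members gave 33.6% of the member UMIs in *Lepr-TdT* and 17.0% in *Grem1-TdT* cells. Haematopoietic markers moved with this, at 371 and 265 per 10000 on the *Lepr-TdT* plates and 3.001 to 55.5 on the *Grem1-TdT* plates, and their part in the difference was not tested. Without the cells that carry 10 or more of these markers, the members' share was 13.6 ± 4.93 in *Lepr-TdT* and 9.37 ± 2.74 in *Grem1-TdT*.

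**Figure D1:**
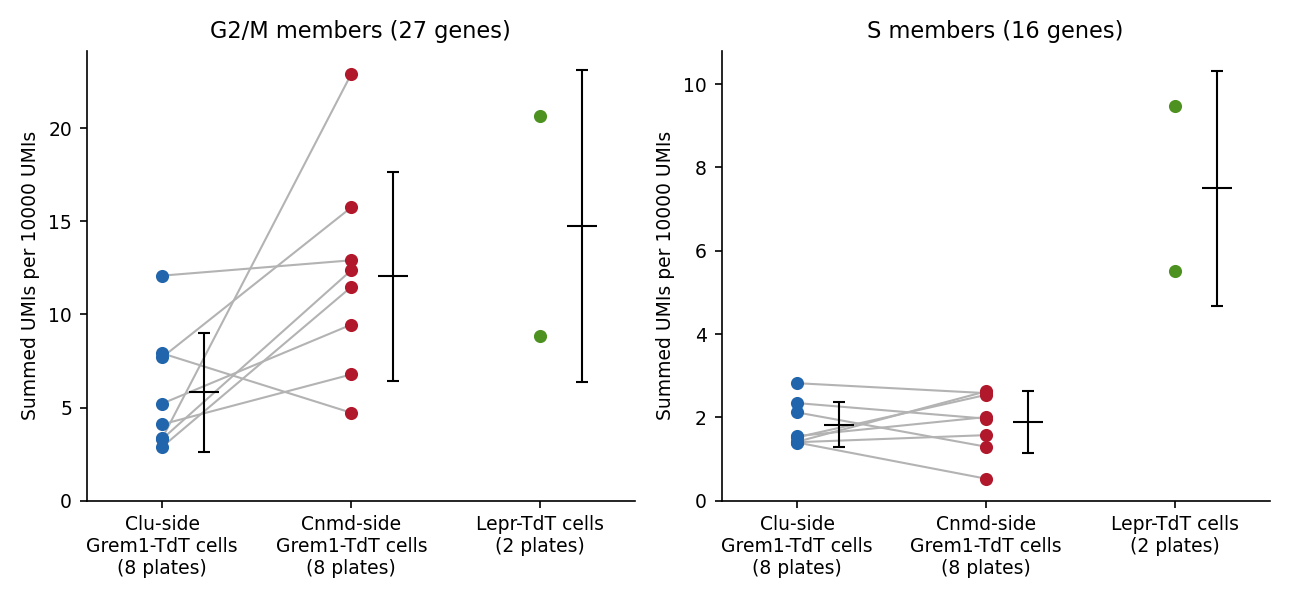
Summed share of the G2/M members and of the S phase members, each in its own panel, per 10000 UMIs (vertical axis) on each plate. Values are for Clu-side and Cnmd-side *Grem1-TdT* cells and for *Lepr-TdT* cells. Points are plates, grey lines join the sums of 1 plate, and bars are mean ± SD; Cnmd-side sums lie above Clu-side sums on 7 of 8 plates for G2/M members and on 4 of 8 for S phase members.

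Member UMIs were concentrated in few cells. No member was detected in 307 of 684 *Grem1-TdT* cells, 1 in 225, 2 in 85 and 3 in 29. The 38 cells with 4 or more distinct members, 5.56% of cells (95% Clopper-Pearson interval 3.96 to 7.55%, counting error only), held 55.5% of the member UMIs and 10.2% of all UMIs. In *Lepr-TdT*, 12 of 160 cells (7.5%, 3.94 to 12.7%) held 66.1% of the member UMIs and 32.3% of all UMIs. Between 4 and 26 distinct members were found in these *Grem1-TdT* cells, and 14 of them had 10 or more.

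Of the Cnmd-side cells, 31 of 270 (11.5%, 7.94 to 15.9%) had 4 or more members, against 7 of 414 Clu-side cells (1.69%, 0.682 to 3.45%). By plate, the share was 5 to 18.2% (median 11.8%) in Cnmd-side and 0 to 5.36% (median 1%) in Clu-side cells. It was higher in Cnmd-side cells on 8 of 8 plates, and 4 plates had no such Clu-side cell. Depth differed between the groups. With each cell thinned to 796 UMIs, 9 of 262 Cnmd-side cells (3.44%, 1.58 to 6.42%) and 4 of 354 Clu-side cells (1.13%, 0.309 to 2.87%) kept 4 members, and these intervals overlapped. Between lineages, thinning to 529 UMIs left 11 of 682 *Grem1-TdT* cells (1.61%, 0.808 to 2.87%) and 2 of 77 *Lepr-TdT* cells (2.60%, 0.316 to 9.07%), with 83 shallower *Lepr-TdT* cells left out.

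The 646 *Grem1-TdT* cells with fewer than 4 members held 5.53 member UMIs per 10000, a level that the choice of cells itself lowers, and 26.9% of these were S phase UMIs.

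**Figure D2:**
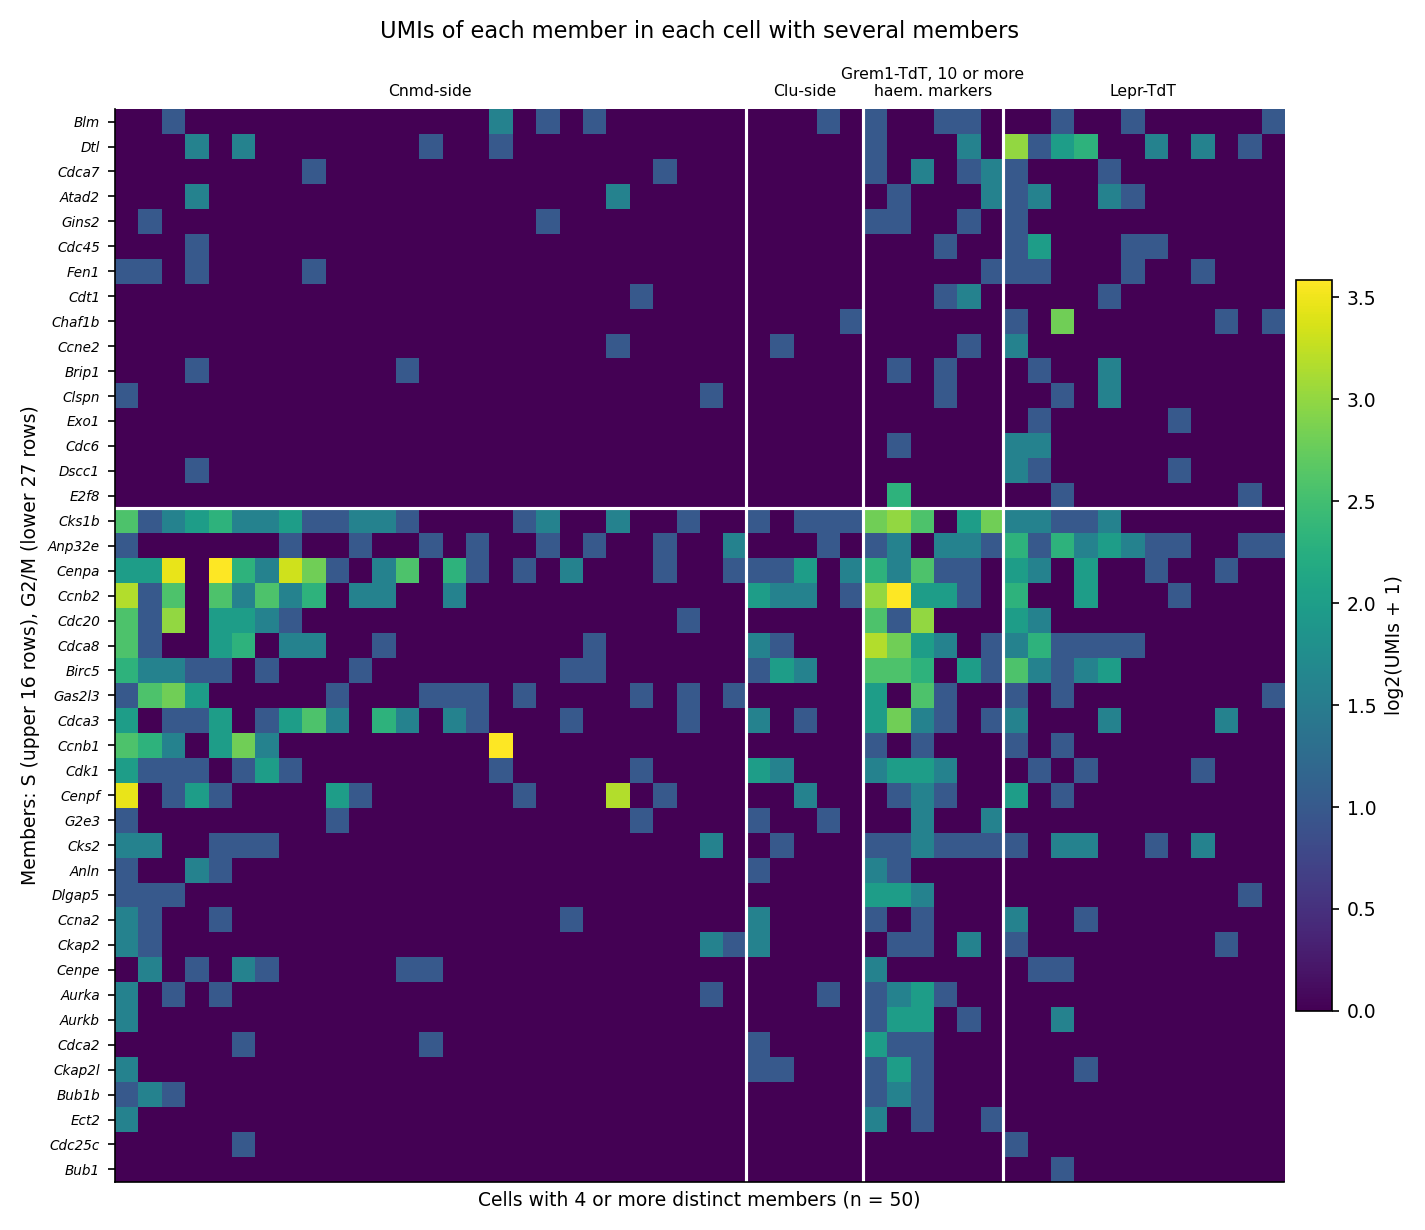
UMIs of each member (rows, S phase above G2/M) in each of the 50 cells with 4 or more distinct members (columns), coloured by log2(UMIs + 1). The 27 Cnmd-side, 5 Clu-side and 12 *Lepr-TdT* cells form blocks, and the 6 *Grem1-TdT* cells with 10 or more haematopoietic markers form a block of their own; G2/M rows fill the *Grem1-TdT* columns, and S phase rows hold a larger part of the UMIs in the *Lepr-TdT* columns.

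Members differed in how far their UMIs fell in such cells. For each gene, cells with 4 or more other members were taken, so that the gene itself had no part in the choice. Of the *Ccnb2* UMIs in *Grem1-TdT* cells, 80.0% lay in them. The share was 69.5% for *Cdca3*, 66.1% for *Cdca8*, 64.9% for *Cenpa*, 64.3% for *Birc5*, 62.5% for *Cenpf* and 61.9% for *Cdk1*. All of these are mitotic genes, and the cells so chosen held 8.69 to 10.03% of all UMIs.

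For *Cks1b*, *Cks2* and *Cdc20* the share was 48.8%, 48.4% and 45.5%, and for *Gas2l3* 35.6%. It was 20.5% for *G2e3* and 11.7% for *Anp32e*, a chaperone of the histone H2A.Z. *Blm* had the lowest share among the members with enough UMIs to plot, at 6.49%, where the cells so chosen held 9.47% of all UMIs. UMIs of *Blm* and *Anp32e* thus lay mostly in cells with fewer other members, and were found in 62 and 85 cells.

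**Figure D3:**
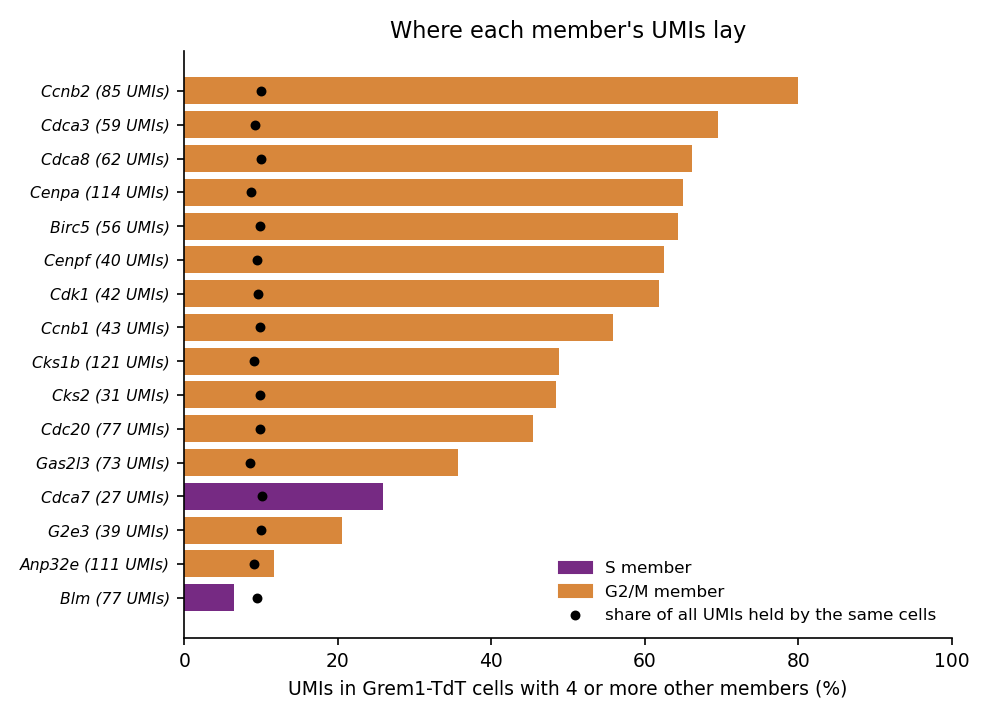
Percent of a member's *Grem1-TdT* UMIs that lay in cells with 4 or more other members (bars, horizontal axis), for the members with the most UMIs. Dots give the percent of all UMIs in the same cells; *Ccnb2* reaches 80.0% and *Blm* 6.49%, against dots of 8.49 to 10.06%.

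Among the 14 *Grem1-TdT* cells with 10 or more members, 8 had few haematopoietic markers and 6 had 10 or more. Of the 8, 7 were Cnmd-side and 1 Clu-side. These 8 cells held 141 member UMIs per 10000, 5.45% of them S phase, and had 0 to 3 haematopoietic markers each. The cell with the most was cell 1 of plate 4, with 25 members and 73 member UMIs among 2384, of which 2 were S phase UMIs. It also carried 129 UMIs of *Cnmd*, 100 of *Col2a1*, the main cartilage collagen, and 44 of *Cytl1*, a chondrocyte cytokine. Cell 1 of plate 2 had 13 members and 38 member UMIs, none S phase, with 232 UMIs of *Col2a1* and 80 of *Cnmd*. Cell 2 of plate 9 stood apart in phase, with 8 S phase UMIs among 23 of 14 members. The Clu-side cell, cell 1 of plate 7, had 13 members and 21 member UMIs, all G2/M, beside 150 UMIs of *Cytl1*, 38 of *1500015O10Rik*, 29 of *Cilp* and 24 of *Clu*. It was the only Clu-side cell with 10 or more members and few haematopoietic markers.

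The other 6 cells carried both cartilage and blood transcripts. Cell 1 of plate 9 had 26 members, 67 member UMIs and 23 haematopoietic markers, with 180 UMIs of *Col2a1* and 65 of *Elane*, the neutrophil elastase of granulocyte precursors. Cell 1 of plate 5, on the Clu-side, had 24 members and 69 of the 111 member UMIs of its sum, beside 263 UMIs of *Cytl1* and 41 of *Cd74*, an antigen presentation gene. Cell 2 of plate 5 had 23 members with 240 UMIs of *Elane*, 40 of *Ctsg*, another granule protease, and 53 of *Cytl1*. It counted as Cnmd-side by 9 UMIs of *Cnmd* against 8 of the Clu-side genes, and held 60 of the 162 member UMIs of its sum. The 6 cells had a median of 6298 UMIs, against 2402 in the 32 other cells with 4 or more members, and held 314 haematopoietic UMIs per 10000 against 7.93. Over the 38 cells, 8 of 8 granulocyte, 9 of 9 pan-leukocyte, 8 of 9 monocyte and macrophage, 6 of 8 B lineage, 5 of 10 erythroid and 0 of 3 T and NK markers had a UMI. In the 646 cells with fewer members the counts were 8, 9, 5, 6, 5 and 2 in that order. These come from a far larger pool, as the 38 cells held 10.2% of all UMIs. The summed level differed, for the granulocyte list 56.7 per 10000 in the 38 cells and 5.02 in the 646. Only 3 *Grem1-TdT* cells with 10 or more haematopoietic markers had fewer than 4 members. No doublet caller was run on these sorted wells, and the part of a second cell or of free RNA in these 6 profiles was not tested.

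Without all cells with 10 or more haematopoietic markers, 27 of 266 Cnmd-side cells (10.2%, 6.80 to 14.4%) and 5 of 409 Clu-side cells (1.22%, 0.398 to 2.83%) had 4 or more members, and the difference in summed share was 6.17 per 10000. With each cell thinned to 796 UMIs, 7 of 258 Cnmd-side (2.71%, 1.10 to 5.51%) and 3 of 349 Clu-side cells (0.860%, 0.178 to 2.49%) were left, with overlapping intervals.

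**Figure D4:**
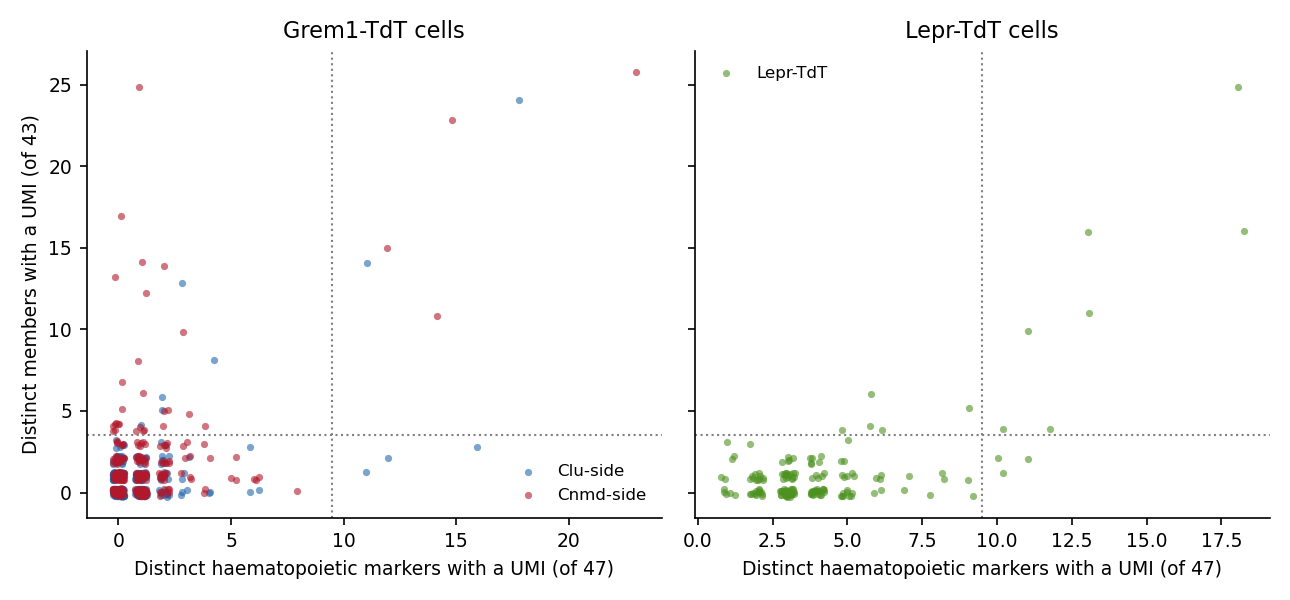
Distinct members (vertical axis) against distinct haematopoietic markers (horizontal axis) in each kept cell, for *Grem1-TdT* and *Lepr-TdT* cells. Points are cells, moved slightly at random so that they do not hide one another, and dotted lines stand between 3 and 4 members and between 9 and 10 markers; 32 *Grem1-TdT* cells lie above the first line with fewer markers and 6 with more, and all 5 *Lepr-TdT* cells with 10 or more members have 10 or more markers.

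In *Lepr-TdT*, all 5 cells with 10 or more members carried 10 or more haematopoietic markers. They had a median of 5846 UMIs, against 498 in the other cells, and 36.9% of their member UMIs were S phase. Cell 1 of plate 1 had 25 members and 54 member UMIs, 19 of them S phase, with 338 UMIs of *Camp*, a granule peptide, 74 of *Cd74* and 26 of *Cxcl12*. Cell 1 of plate 2 had 16 members and 28 member UMIs, 12 of them S phase, with 235 UMIs of *Elane* and 33 of *Cxcl12*. Over the 12 cells with 4 or more members, *Cxcl12* made up 33.95 to 282 per 10000, against a median of 332 in the other 148 cells.

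Granulocyte RNA was, however, found in nearly every *Lepr-TdT* cell, with *Camp* in 12 of 12 cells with 4 or more members and in 146 of the 148 others, and *S100a8* in all 160. The 12 cells held a UMI of 8 of 8 granulocyte, 9 of 9 pan-leukocyte, 5 of 9 monocyte and macrophage and 3 of 8 B lineage markers, with 449 granulocyte UMIs per 10000 against 160 in the others. *Ptprc*, which encodes the CD45 used in the sort, had 9 UMIs in 4 of the 12 cells and 5 UMIs in 5 of the 148. Without the cells with 10 or more haematopoietic markers, 5 of 150 *Lepr-TdT* cells (3.33%) had 4 or more members.

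Whether single members differed between Cnmd-side and Clu-side cells was tested on UMIs summed per plate and group, 16 sums in all, with edgeR's quasi-likelihood test and Benjamini-Hochberg adjustment. The plate was no block in this fit, so both sums of a plate counted as independent. With the filter on low counts, 1075 genes were tested and 41.3% were called (21.6% higher and 19.7% lower in Cnmd-side cells), but none of the 43 members passed the filter. Without the filter, 12514 genes were tested and 5.67% were called (2.60% higher and 3.08% lower in Cnmd-side cells), and 4 of 42 members with a UMI were called, all higher in Cnmd-side cells. At an unadjusted p below 0.05 there were 7 of 42 members, against 15.4% of all genes tested. The members' median log2 fold change was 0.35, with 29 of 42 above 0, against -0.01 over all genes tested. The 4 were *Cdc20*, *Cenpa*, *Ccnb1* and *Cenpf*. In the windows shown above, TTTGAA stands in all of these but *Ccnb1*, and CCAAT in all 4. All 4 are G2/M members, of whose windows 69.6% hold TTTGAA and 87.0% CCAAT.

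*Cdc20* (chr4:118432901-118437352) gave 0, 0.0645 and 0.403 UMIs per 10000 (lowest, median, highest plate) in Clu-side and 0, 0.807 and 5.19 in Cnmd-side sums. It was higher in Cnmd-side cells on 7 of 8 plates, with 0 in both groups on plate 7, and the ranges overlapped. The log2 fold change was 2.79 (SE 0.51), with an edgeR adjusted p of 3.87e-06. By cell, 7 UMIs lay in 7 Clu-side cells and 70 in 23 Cnmd-side cells. Plate 4 held 31 of these, 16 of them in 1 cell with 93 *Cnmd* UMIs and no other member.

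*Cenpa* (chr5:30666777-30674830) gave 0, 0.364 and 0.943 per 10000 in Clu-side and 0.175, 1.15 and 3.03 in Cnmd-side sums, higher on 7 of 8 plates. Its log2 fold change was 1.62 (SE 0.38, edgeR adjusted p = 0.000953). Its 93 Cnmd-side UMIs lay in 26 cells, and 66 of them in 14 cells with 4 or more other members.

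*Ccnb1* (chr13:100778650-100786570) gave 0, 0.0645 and 0.390 per 10000 in Clu-side and 0, 0.392 and 2.68 in Cnmd-side sums, higher on 6 of 8 plates, with a log2 fold change of 2.34 (SE 0.64, edgeR adjusted p = 0.00748). Its 38 Cnmd-side UMIs lay in 12 cells, 11 of them in 1 cell of plate 4. *Cenpf* (chr1:189640606-189688086) gave 0, 0.0671 and 0.471 in Clu-side and 0.125, 0.332 and 1.84 in Cnmd-side sums, higher on 7 of 8 plates, at 1.93 (SE 0.64, edgeR adjusted p = 0.0455). For both, the groups' ranges overlapped. Single plates decided both calls. Without plate 4, edgeR gave 1.71 (adjusted p = 0.229) for *Ccnb1* and 1.31 (adjusted p = 0.354) for *Cenpf*, and without plate 1 *Ccnb1* had 1.92 (adjusted p = 0.0934). The *Cenpf* call was lost without any 1 plate other than plate 1 (edgeR adjusted p from 0.0545 to 0.354). *Cdc20* and *Cenpa* stayed called without each plate, and *Cdc20* was lowest without plate 4, at 2.02 (edgeR adjusted p = 0.0326). DESeq2 called only *Cdc20* and *Cenpa* without the filter, and with the plate as a block *Cenpf* had an edgeR adjusted p of 0.0521.

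Other members with many UMIs did not pass in this fit. *Gas2l3* gave 0, 0.324 and 0.489 per 10000 in Clu-side and 0, 0.832 and 1.32 in Cnmd-side sums (log2 fold change 1.30, edgeR adjusted p = 0.0691, and 0.0227 without plate 1). *Cdca3* gave 0, 0.192 and 0.940 against 0.109, 0.706 and 1.5 (1.15, edgeR adjusted p = 0.190). *Ccnb2* gave 0, 0.227 and 1.75 against 0, 0.855 and 1.87 (0.54, edgeR adjusted p = 0.447). The most deeply sampled member, *Cks1b*, gave 0.152, 0.879 and 1.37 against 0.175, 1.15 and 2.25 per 10000. For *Anp32e* the values were 0.387, 0.790 and 1.41 against 0.219, 0.997 and 1.92, and for *Blm* 0.129, 0.496 and 1.17 against 0, 0.640 and 1.53. *Birc5* gave 0, 0.342 and 0.940 against 0.175, 0.537 and 0.836, and *Cdca8* 0, 0.231 and 1.07 against 0, 0.752 and 1.51. All of these ranges overlapped.

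**Figure D5:**
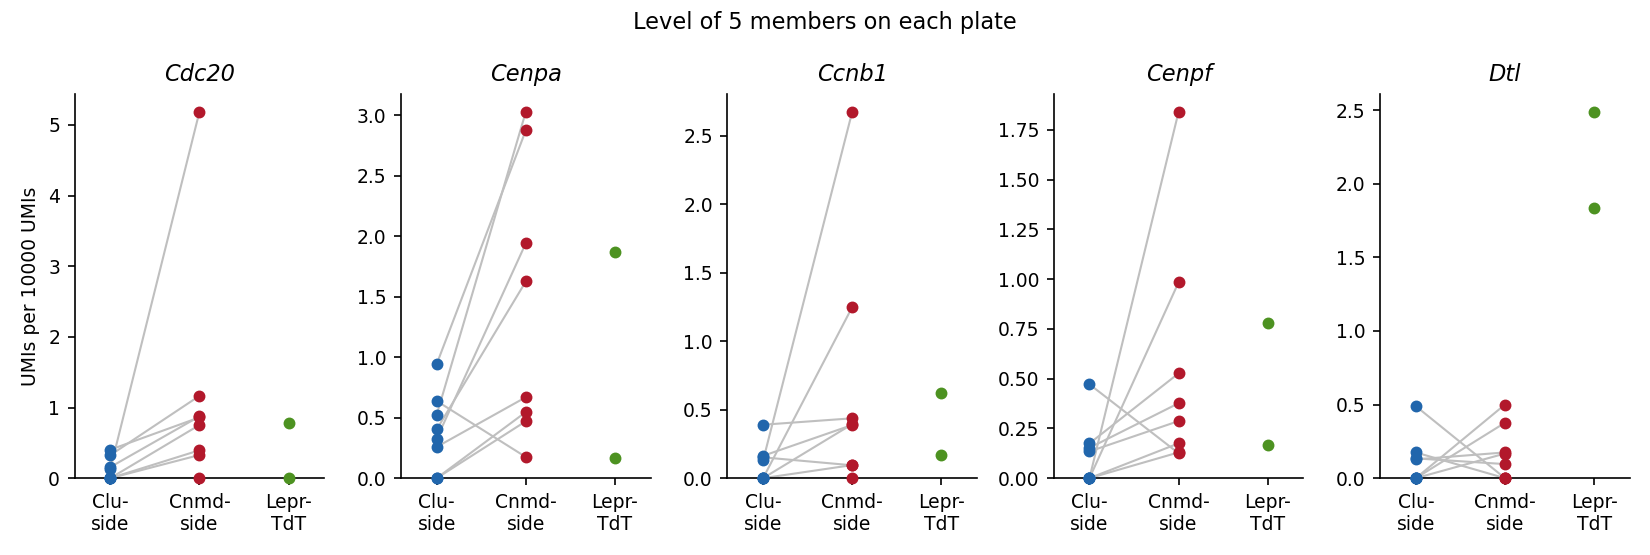
UMIs per 10000 (vertical axes, each with its own scale) of *Cdc20*, *Cenpa*, *Ccnb1*, *Cenpf* and *Dtl* on each plate in Clu-side, Cnmd-side and *Lepr-TdT* cells. Points are plates and grey lines join the sums of 1 *Grem1-TdT* plate; plate 4 is the highest Cnmd-side point for *Cdc20* (5.19), *Ccnb1* (2.68) and *Cenpf* (1.84), and *Dtl* is highest on the *Lepr-TdT* plates (2.49 and 1.83).

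Between lineages, edgeR tested 2944 genes over the 10 plates and called 29.0% (12.2% higher and 16.8% lower in *Lepr-TdT*). Of 12 members that passed the filter, 1 was called, *Dtl*, and 3 had an unadjusted p below 0.05, against 41.4% of all genes tested. The median log2 fold change of the 12 was -0.02 with 6 above 0, against -0.11 over all genes tested. *Dtl* (chr1:191537356-191575544) gave 0, 0.130 and 0.278 per 10000 on the *Grem1-TdT* plates and 2.49 and 1.83 on the *Lepr-TdT* plates, with no overlap. Its log2 fold change was 3.37 (SE 0.57, edgeR adjusted p = 0.000399). *Dtl* passed the filter only through the *Lepr-TdT* plates, with 16 and 11 UMIs there and 0 to 4 on a *Grem1-TdT* plate. Its call after the filter is thus no support apart from that high level.

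Of its 27 *Lepr-TdT* UMIs, 22 lay in 9 of the 10 cells with 10 or more haematopoietic markers. These 10 cells were deeply sampled. The 7 with 4 or more members had a median of 4283 UMIs and the 3 others 1265, against 505 over all kept *Lepr-TdT* cells. Without those cells *Dtl* fell below the filter, and without the filter it was then 1.63 (SE 1.05, edgeR adjusted p = 0.482).

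Without the filter, edgeR tested 13283 genes and called 8.14% (3.40% higher, 4.74% lower), and 2 of 43 members were called, *Dtl* (3.15, SE 0.60, adjusted p = 7.11e-06) and *Chaf1b* (4.03, SE 1.02, adjusted p = 0.00178). At an unadjusted p below 0.05 there were 9 of 43, against 21.1% of all genes tested. The members' median was 0.24 and that of all genes -0.79. *Chaf1b* (chr16:93883901-93906115) had 1 and 10 UMIs on the *Lepr-TdT* plates, 6 of them in 1 cell that also held 15 other members, and 0 to 2 on a *Grem1-TdT* plate. Without *Lepr-TdT* plate 2, which held the 10, the log2 fold change was 1.63 (SE 1.73, edgeR adjusted p = 0.763).

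The other 11 members tested were not called. *Anp32e* gave 0.280, 0.961 and 1.34 per 10000 on the *Grem1-TdT* and 3.58 and 1.67 on the *Lepr-TdT* plates, above the *Grem1-TdT* range on both (1.02, edgeR adjusted p = 0.0884). *Birc5* gave 0.150, 0.478 and 0.726 against 2.95 and 0.333 (1.34, edgeR adjusted p = 0.103). *Gas2l3* gave 0.209, 0.565 and 0.981 against 0.155 and 0.333 (-1.78, edgeR adjusted p = 0.124). The *Lepr-TdT* plates lay far apart for several members: *Cenpa* had 1.87 and 0.167 per 10000 there, *Cdc20* 0.777 and 0, *Cks1b* 2.80 and 1.33, *Cdca8* 1.71 and 0.667, *Ccnb2* 1.24 and 0.5002, *Cdca3* 0.933 and 0.333, and *Blm*, with the opposite order, 0.311 and 0.667. With 1 *Lepr-TdT* plate left out, the other is assumed to vary as the *Grem1-TdT* plates do, from which the whole spread then comes. Without *Lepr-TdT* plate 2, *Birc5* was called at 2.12 (edgeR adjusted p = 0.0176) under that assumption.

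In the fit without the filter, single plates decided further calls, and those with 1 *Lepr-TdT* plate rest on the same assumption. *Cdc20* and *Cenpa* were called lower in *Lepr-TdT* without its plate 1 (edgeR adjusted p = 0.0281 and 0.0411), where the remaining plate held 0 and 1 UMIs. *Cdc20* was called lower also without the cells with 10 or more haematopoietic markers (edgeR adjusted p = 0.00938). *Cdc6* and *Dscc1*, each with 5 *Lepr-TdT* UMIs, were called higher without *Lepr-TdT* plate 2 (edgeR adjusted p = 0.0322 and 0.0333), and *Cdc6* also without *Grem1-TdT* plate 5 (edgeR adjusted p = 0.00944).

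Of the 59 other S and G2/M genes listed for both lineages, 2 of 58 with a UMI were called between the cell groups and 5 of 59 between lineages without the filter, against 5.67% and 8.14% of all genes tested. Between the cell groups, *Dek*, a chromatin protein, and *Bub3*, a spindle checkpoint gene, passed the filter and were not called. Without the filter, *Cdkn3*, a phosphatase that acts on Cdk kinases, was higher in Cnmd-side cells (1.80, edgeR adjusted p = 0.0213), a call lost without plate 1 or plate 8 (edgeR adjusted p = 0.271 and 0.0684). *Cenpp*, a centromere gene, was lower on all 8 plates (-2.45, edgeR adjusted p = 0.000141), with 0.387, 0.653 and 2.20 per 10000 in Clu-side and 0, 0.171 and 0.527 in Cnmd-side sums. Its direction was thus opposite to that of the 4 members called. Of the 53 *Cenpp* UMIs in *Grem1-TdT* cells, 4 (7.55%) lay in cells with 4 or more members, which held 10.2% of all UMIs. Between lineages, *Gen1*, a nuclease of DNA repair (2.35, edgeR adjusted p = 6.85e-05), and *Cit*, a kinase of cytokinesis (2.31, edgeR adjusted p = 0.00184), were called higher in *Lepr-TdT* among the 13 tested. The *Cit* call rested on *Lepr-TdT* plate 2 (0.96 without it, edgeR adjusted p = 0.327). Without the filter, *Arhgap11a* (5.36), *E2f2* (3.39) and *Cenpn* (3.40) were called too. Each of these calls was lost without 1 *Lepr-TdT* plate, *E2f2* without plate 1 (edgeR adjusted p = 0.764), and *Arhgap11a* and *Cenpn* without plate 2 (edgeR adjusted p = 0.533 and 0.763).

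In the 38 *Grem1-TdT* cells with 4 or more members, 49 of the 58 of these genes with a UMI were higher per UMI sampled than in the other 646 cells (84.5%, against 39.9% of the 12472 genes with a UMI that are no members). For 20 of them (34.5%, against 4.22%) the exact 95% Poisson intervals, which cover counting error only, stood apart. The 38 cells were chosen by their members and were the deeper sampled, with a median of 2664.5 UMIs against 1424. *Cdkn3* had 38 UMIs against 18, 18.6-fold per UMI sampled, *Asf1b*, a histone chaperone, had 22 against 7 (27.6-fold), and *Cenpw*, a centromere gene, had 45 against 38 (10.4-fold). Those with the most UMIs differed less, with 2.12-fold for *Dek*, 2.55-fold for *Bub3*, 1.91-fold for *Dut*, 1.37-fold for *Gins1* and 0.782-fold for *Gen1*. In *Lepr-TdT*, 30 of the 44 with a UMI were higher (68.2%, against 47.9% of 17435 genes) and for 1 the intervals stood apart (2.27%, against 3.03%). Of the further S and G2/M genes listed for *Lepr-TdT* only, 51 of 55 with a UMI were higher (92.7%), 11 of them with intervals apart (20%). *Top2a*, the topoisomerase of mitotic chromosomes, had 21 UMIs in the 12 cells against 2 in the 148 others. *Hmgb2* had 45 against 6 (16.1-fold), and *Mki67*, the Ki-67 gene, had 10 against 2.

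By fold, and with the members themselves left out, the genes that led in the *Grem1-TdT* cells with 4 or more members were in part of the granulocyte lineage. *Elane* led with 481 UMIs in 9 of the 38 cells against 40 in the 646 others (106-fold), and *Ctsg* had 97 against 15 (56.9-fold). A few cells carried both: 471 of the 481 *Elane* UMIs and 95 of the 97 of *Ctsg* lay in 3 cells each, and the 32 cells with fewer than 10 haematopoietic markers held 7 and 0. *Gda*, *Cd93*, *Gatm* and *Cst7* had 9, 16, 13 and 7 UMIs against 1, 3, 0 and 2, where *Gatm* was at least 38.1-fold higher with a floor of 3 counts over the other cells. The cell division genes among the 10 were *Cdca5*, a regulator of cohesin (15 UMIs against 3), *Diaph3*, a formin (8 against 2), and *Fam64a* (5 against 1), beside the unnamed locus *Gm20630* (5 UMIs against 1). In *Lepr-TdT*, histone genes led, with 95 UMIs of *Hist1h2ak* in 5 of 12 cells against 2, 99 of *Hist1h2al* against 5 and 22 of *Hist1h2ab* against 1. *Ly6c1* (55 against 3), *Selplg* (22 against 2) and *Pcdh1* (23 against 1) followed, with *Paics*, an enzyme of purine synthesis (15 against 1), *Gm11336*, *Gm4854* and *Gm26521* (99, 16 and 11 UMIs). Replication-dependent histone transcripts are made in S phase. Genes with symbols that come after those beginning with Gm were not listed for *Grem1-TdT* cells. The histone genes, *Ly6c1*, *Selplg*, *Pcdh1* and *Paics* could thus not appear there, and the leading genes cannot be compared between lineages.

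Some members share sequence with other genes. By the GENCODE annotation of GRCm38, 11 members share exon bases with a gene on the opposite strand, and none with one on the same strand. *Cdc20* shares 53 bases with *Elovl1*, and *Fen1*, *Gins2* and *Ccne2* share 1909, 2758 and 609 bases with *Gm10143*, *Gse1* and *Ints8*. Whether reads were counted by strand is not given in the sources used here, so UMIs of *Fen1*, *Gins2* and *Ccne2* are uncertain. The last 500 bases of *Cks2* match 3 processed pseudogenes, at 98.3 to 100% identity over 229 bases, so its count is uncertain too.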

How the data were processed

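UMI counts of 8 *Grem1-TdT* and 2 *Lepr-TdT* plates were analysed. The authors deposited raw counts per gene and cell, without normalisation, and per the labels' processing notes used UMI-tools, STAR, featureCounts, SAMtools, Seurat and mm10 (versions and strand setting are not given in the sources used here). From the *Grem1-TdT* table, 29183 complete rows were used and 1 incomplete row was left out. Its rows end within the symbols that begin with Gm, so genes with later symbols could not be examined in *Grem1-TdT* cells. No column was unmapped. Of the *Lepr-TdT* UMIs, 40.9% lay in genes listed for both lineages, and levels are per these UMIs.

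A well was kept as a cell when 350 genes or more were detected in it. Counts were summed per plate, or per plate and cell group (at least 10 cells), and tested in R 4.3.3 with edgeR 4.0.16 (TMM, filterByExpr, quasi-likelihood test, Benjamini-Hochberg adjustment over all tested genes, threshold 0.05). Standard errors are the log2 fold change over the square root of F. DESeq2 1.42.0 was an alternative. The fit was tested on simulated data. Cells were allocated to plates at random and no label ties a plate to an animal. The p-values and SDs thus measure the spread between plates and give no measure of the spread between mice. The 2 sums of a plate deviated together (correlations across genes 0.187 to 0.454 on 8 plates), so cell groups are paired by plate. The main fits did not model this pairing, and the plate as a block was an alternative. All 96 well barcodes recur on several plates, and plates were kept apart. Intervals and floors (3 counts) cover counting error only. For thinning, the number of UMIs was set at the 10th percentile, and cells below it were dropped.

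The members and all gene lists were chosen with earlier results of these data known. Values by plate are given for the 10 members with the most UMIs and every member called, and other cell cycle genes are named where called or among the 5 with the most UMIs. For cells with 4 or more members, named genes are the 10 genes other than members highest by fold with at least 5 UMIs in at least 3 of these cells, and a cell's markers come from the 5 with most UMIs. *Cenpw*, *Asf1b*, *Top2a*, *Hmgb2*, *Mki67*, *S100a8* and *Ptprc* in these cells, and the choice of cells described, were picked after their values were seen. The haematopoietic list joins pan-leukocyte, granulocyte, monocyte, B, T and erythroid markers. Members were placed on GRCm38 with GENCODE.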

Additional observations from a re-analysis of the deposited data

Results flagged for a closer look

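Of 33 groups of 8 plates examined for a plate that stood far from the others, 6 held one. The nominal rate of 1 in 20 groups is for independent, normally spread values. Many of these groups are small counts with plates at 0, and some overlap, so that rate is no measure here. In Clu-side cells, the members' summed share was 14.9 per 10000 on plate 5, with a median of 6.89 and a next value of 9.31, and 69 of its 111 member UMIs lay in 1 cell with 18 haematopoietic markers. *Cdc20* stood out on plate 4, at 2.33 per 10000 over all *Grem1-TdT* cells (median 0.511, next 0.794) and at 5.19 in Cnmd-side cells (median 0.807, next 1.17). *Ccnb1* in Cnmd-side cells was also highest on plate 4, at 2.68 (median 0.392, next 1.25). In Clu-side cells, *Ccnb1* reached 0.390 on plate 6 (median 0.0645, next 0.163), from 2 UMIs in 1 cell, and *Cenpf* reached 0.471 on plate 1 (median 0.0671, next 0.174), from 3 UMIs in 2 cells.

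The 84 *Grem1-TdT* wells with fewer than 350 detected genes entered no comparison and held 22 member UMIs in 18 wells, above the 3 counts that a count of 0 allows. Their share was 5.53 per 10000, and no such well held more than 2 distinct members.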

How the results depend on the processing

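Between lineages, the 853 genes called became 331 without cells with 3 or more haematopoietic markers, 489 on plates 1 and 2 with the plate number as a replicate block and 451 there without it, and 529 to 850 with each plate left out. The numbers share no animal that the labels name (correlations 0.00110 and 0.0752), so the block is no pairing there. The 1 member called became 2 without the filter, 0 without cells with 3 or more or with 10 or more haematopoietic markers (0 and 1 at an unadjusted p below 0.05 by edgeR), and 1 to 2 with each plate left out. The median kept cell carried 3 haematopoietic markers in *Lepr-TdT* and 0 in *Grem1-TdT*. Leaving out cells with 3 or more thus removes most *Lepr-TdT* cells and few *Grem1-TdT* cells. The part of this loss of depth in the changed calls was not tested. Between cell groups, 444 genes became 710 without the filter and 288 in cells with at least 500 detected genes, and 0 members became 4 without the filter. With the plate as a block, pairing the sums, 515 genes were called with the filter, and without it 781 genes and 3 members, as *Cenpf* was lost; it changed no other member's call. DESeq2 size factors within edgeR moved the share of calls that were higher in Cnmd-side cells without the filter from 45.8 to 33.0%, and between lineages without the filter from 41.8 to 51.6% higher in *Lepr-TdT*.

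Cells with 4 or more members were chosen by the genes tested, so that leaving them out lowers these genes by construction and bears on no call. Without them, the summed share was 5.53 per 10000 in *Grem1-TdT* and 5.97 in Cnmd-side cells, and without the 20 most abundant genes in the denominator 15.6 in *Grem1-TdT* and 11.9 in Clu-side cells. With each plate left out it was 6.6 to 8.10 in Clu-side, 12.4 to 15.03 in Cnmd-side, 10.4 to 11.4 in *Grem1-TdT* and 14.3 to 30.2 in *Lepr-TdT* cells, and the difference between groups 4.33 to 7.63. Cells counted at 3 or more members were 9.80% in *Grem1-TdT*, 3.86% in Clu-side and 18.9% in Cnmd-side, at 6 or more 2.78%, 3.75% in *Lepr-TdT* and 5.19% in Cnmd-side, in *Grem1-TdT* cells with at least 500 genes 7.86%, after thinning 1.61% in *Grem1-TdT*, 2.60% in *Lepr-TdT* and 3.44% in Cnmd-side, and in *Lepr-TdT* without cells with 10 or more haematopoietic markers 3.33%.

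Among genes called in either of the fits compared, directions turned in these cases, all without the filter. *Dtl* (-3.45), *Arhgap11a* (-0.87) and *Cit* (-0.16) turned without cells with 3 or more haematopoietic markers, and *E2f2* (-2.29) without *Lepr-TdT* plate 1. The setting without cells with 3 or more of these markers keeps only the smaller part of the *Lepr-TdT* cells. *Ccnb1* (-0.82) and *Cenpf* (-0.66) turned without cells with 4 or more members, where the choice of cells removes their UMIs. The other causes were not tested. Of the other values, 157 summary values stayed near the main value, and 788 values, mostly of single genes, kept their side of the threshold. The 788 include directions that turned where neither fit made a call. Between lineages, *Anp32e* ranged from -0.59 to 1.42, *Ccnb2* from -1.06 to 0.30 and *Cenpa* from -6.24 to 0.45 over the alternatives. The alternatives that leave out cells with 10 or more haematopoietic markers or with 4 or more members, and the repeats without the filter, were chosen after seeing the data. The median member had 18 UMIs, and a member that was not called was not shown to be unchanged.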
